A study of Mus musculus with 15 samples.

Results

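The Cyp3a cytochromes are the mouse members of the CYP3A subfamily of cytochrome P450 enzymes, and their liver transcripts were compared after gastric bypass and after sham surgery. The 7 genes Cyp3a11, Cyp3a13, Cyp3a16, Cyp3a25, Cyp3a41a, Cyp3a44 and Cyp3a59 were taken by their symbols in the annotation of the array, out of 22180 genes that had a transcript cluster of their own. A transcript cluster is the set of probes that the array summarises into a single value. Of the 7 genes, 6 had 1 such cluster each. Cyp3a41a had none, and its probes were annotated only in 2 clusters shared by 4 symbols (Cyp3a11, Cyp3a41a, Cyp3a41b and Cyp3a44). Those clusters are described below as shared signal, and no value is given for Cyp3a41a alone. Outside the 7 genes, 1 other Cyp3a symbol had a cluster of its own, and no result is given for it.

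All 15 livers came from male ApoE3L.CETP mice, which carry a human apolipoprotein E3-Leiden variant and human cholesteryl ester transfer protein and so have a more human-like lipoprotein profile than other mice. The animals were 9 to 12 weeks old, per the labels, and were kept on food containing 60% fat and 0.25% cholesterol during the 6 weeks that led up to the operation. After it they were housed singly, and livers were taken on day 20. The groups were Roux-en-Y gastric bypass (RYGB, n = 6), in which food bypasses most of the stomach and the upper small intestine, sham surgery with free access to food (Sham AL, n = 5), and sham surgery with body weight matched to the bypass mice (BWm, n = 4). The transgenes, the diet before surgery and an operation were thus common to all groups. BWm against Sham AL differed in body weight without a bypass, but Sham AL, unlike BWm, is described as having free access to food. Body weight and food intake cannot be told apart in that comparison. Values are log2 signals from Affymetrix Mouse Gene ST arrays, deposited after robust multi-array averaging (RMA). A difference of 1 is a doubling of the signal, and signals of different genes cannot be set against each other because their probes differ.

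CYP3A enzymes sit in the endoplasmic reticulum, take electrons from cytochrome P450 reductase and oxidise a broad range of drugs, steroids and bile acids. Their genes are textbook targets of the xenobiotic receptors PXR (Nr1i2) and CAR (Nr1i3), which bind DNA together with RXR and are activated by drugs and, for PXR, by some bile acids. In mouse liver Cyp3a11 is the abundant adult form and the usual counterpart of human CYP3A4, Cyp3a13 is expressed in liver and intestine, Cyp3a16 is a perinatal form, and Cyp3a41 and Cyp3a44 are known as female-predominant in adults. On chromosome 5 the protein-coding genes ran in the order Cyp3a57, Cyp3a16, Cyp3a41b, Cyp3a41a, Cyp3a44, Cyp3a11, Cyp3a25 and Cyp3a59 with no other protein-coding gene between them, whereas Cyp3a13 lay elsewhere on the chromosome between Pilrb2 and Gjc3.

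The region before the start site of each gene shows how the members are related. All 7 members had a 300-base window from 250 bases before to 50 bases after the start in RefSeq (GRCm38.p6). They are printed for the genes whose signals differed between groups, for Cyp3a41a, which has no value of its own, and for Cyp3a25, which did not pass any test. The windows lie at chr5:145879805-145880104 for Cyp3a11, chr5:145805825-145806124 for Cyp3a44, chr5:145720087-145720386 for Cyp3a41a, chr5:146009569-146009868 for Cyp3a25 and chr5:137921570-137921869 for Cyp3a13, all on the minus strand. Each reads 5′ to 3′ in the direction of the gene. Cyp3a25 had 2 annotated windows, and only the first listed was printed, searched and aligned. Capitals mark AGGTCA or its complement TGACCT, the core half-site of many nuclear receptors, and CAAAGTCCA, a form of the HNF4 element.
Cyp3a11: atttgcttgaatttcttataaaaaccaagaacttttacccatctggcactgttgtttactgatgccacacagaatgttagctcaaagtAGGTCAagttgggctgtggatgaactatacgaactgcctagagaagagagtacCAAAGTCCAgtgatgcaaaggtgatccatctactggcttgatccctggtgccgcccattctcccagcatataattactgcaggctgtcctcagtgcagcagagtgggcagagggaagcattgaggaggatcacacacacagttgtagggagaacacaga
Cyp3a44: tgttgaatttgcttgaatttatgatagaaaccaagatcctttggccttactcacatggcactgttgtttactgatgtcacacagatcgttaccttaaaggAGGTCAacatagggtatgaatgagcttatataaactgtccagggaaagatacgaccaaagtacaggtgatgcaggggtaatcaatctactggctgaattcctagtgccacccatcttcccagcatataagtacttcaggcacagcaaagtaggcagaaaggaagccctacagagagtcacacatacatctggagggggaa
Cyp3a41a: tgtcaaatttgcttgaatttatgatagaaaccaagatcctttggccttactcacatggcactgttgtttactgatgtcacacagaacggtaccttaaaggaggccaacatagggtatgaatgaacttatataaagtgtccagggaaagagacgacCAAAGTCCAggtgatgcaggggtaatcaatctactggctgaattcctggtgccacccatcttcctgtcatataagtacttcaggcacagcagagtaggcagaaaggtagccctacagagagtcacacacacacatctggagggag
Cyp3a25: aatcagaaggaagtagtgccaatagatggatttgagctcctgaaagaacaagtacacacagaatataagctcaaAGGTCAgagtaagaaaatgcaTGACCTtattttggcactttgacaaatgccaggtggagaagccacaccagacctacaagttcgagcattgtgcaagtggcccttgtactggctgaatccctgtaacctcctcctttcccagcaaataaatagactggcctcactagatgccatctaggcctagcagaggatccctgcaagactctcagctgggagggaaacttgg
Cyp3a13: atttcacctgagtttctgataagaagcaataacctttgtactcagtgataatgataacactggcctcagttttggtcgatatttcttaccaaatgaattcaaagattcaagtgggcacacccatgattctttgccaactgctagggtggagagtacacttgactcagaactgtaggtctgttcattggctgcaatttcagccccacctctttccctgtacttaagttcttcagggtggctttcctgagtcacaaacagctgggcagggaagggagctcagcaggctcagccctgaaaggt

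The motifs were chosen after the sequences had been seen, and a match describes letters and not a bound site. AGGTCA, searched on both strands, was found in 4 of 7 members and in 16.3% of all 32851 windows of this length. It begins at position -162 relative to the start site in Cyp3a11 and at -150 in Cyp3a44, and it occurs on both strands in Cyp3a25 and Cyp3a59. CAAAGTCCA, which does not contain AGGTCA on either strand, was also searched on both strands and was found in 3 of 7 members (Cyp3a11, Cyp3a16 and Cyp3a41a) and in 0.475% of all windows. In Cyp3a44 the corresponding place, at -95, differed from it by the substitution C7A, counted from the motif's 5′ end. TGTTTAC, a forkhead core, was found in 4 of 7 members (Cyp3a11, Cyp3a16, Cyp3a41a and Cyp3a44) and in 3.65% of windows. TTCNNNGAA, a STAT-type element, was found in 0 of 7 members and in 8.3% of windows. Cyp3a13 held none of these motifs in its window.

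Aligned window against window, Cyp3a25 and Cyp3a59 were 95.7% identical and Cyp3a41a and Cyp3a44 93% identical. Cyp3a16 was 93.4% identical to Cyp3a44 and 92.1% to Cyp3a41a. Cyp3a11 stood apart from this trio, with 74.8% identity to Cyp3a16, 71.2% to Cyp3a44 and 70.4% to Cyp3a41a. Cyp3a13 was 53.7% identical to Cyp3a11 and between 48.4% and 54.4% identical to each other member. These identities are of the start regions and not of the transcripts or probes. Closely related transcripts can hybridise to each other's probes, and the array's annotation itself assigns 2 clusters jointly to Cyp3a11, Cyp3a41a, Cyp3a41b and Cyp3a44. Whether any member's signal is fully its own was not tested.

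The samples were checked before the comparisons. The array medians lay between 3.89 and 4.02 and the correlation between arrays between 0.967 and 0.991. None of the 11 measured hepatocyte markers was below the lowest array median in any group, and their list mean, relative to all arrays, ranged from -0.12 to 0.06 in RYGB, from -0.18 to 0.03 in Sham AL and from 0.07 to 0.16 in BWm. Sham AL replicate 4 stood apart because it held transcripts of adrenal cortex and brown fat: its signal was 10.37 for Cyp11b1 (2.39 to 3.10 in the other Sham AL livers) and 11.89 for Ucp1 (3.51 to 4.54). The Cyp3a calls that rest on the Sham AL group are therefore also given without it. In this bulk tissue, fewer cells of a type and less RNA per cell cannot be told apart. The labels call the livers biological replicates, and precision is limited by how few arrays each group has.

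The first comparison was between bypass and freely fed sham mice. Cyp3a11 and Cyp3a44 were called lower after bypass, and none of the 6 measured members was called higher. Thus 2 of 6 passed the test in the lower direction and 0 in the higher, against 0.442% of all genes called lower (98 of 22180) and 0.938% called higher. A gene was called when its adjusted p in limma, with Benjamini-Hochberg correction over all 22180 genes, was below 0.05. The median log2 fold change of the 6 genes was -0.42, beside 0.00 over all genes.

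Cyp3a11, the main CYP3A monooxygenase of adult mouse liver, showed the larger of these differences. Its signal was 9.74, 9.99, 10.57, 9.79 and 10.48 in the Sham AL livers and 9.77, 9.28, 9.61 and 9.72 in the BWm livers. In the RYGB livers it ranged from 8.04 over a median of 8.65 to 9.29. Every RYGB liver was below every Sham AL liver, a separation in this direction seen in 0.812% of all genes. The group means were 8.72 ± 0.45 (SD, n = 6) after bypass, 10.11 ± 0.39 (SD, n = 5) in Sham AL and 9.60 ± 0.22 (SD, n = 4) in BWm. Cyp3a11 was 2.63-fold lower in RYGB than in Sham AL (log2 fold change -1.39 ± 0.20 SE, 95% interval -1.82 to -0.97, adjusted p = 0.00169). Without Sham AL replicate 4 the difference was -1.48 (adjusted p = 0.00128).

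**Figure D1:**
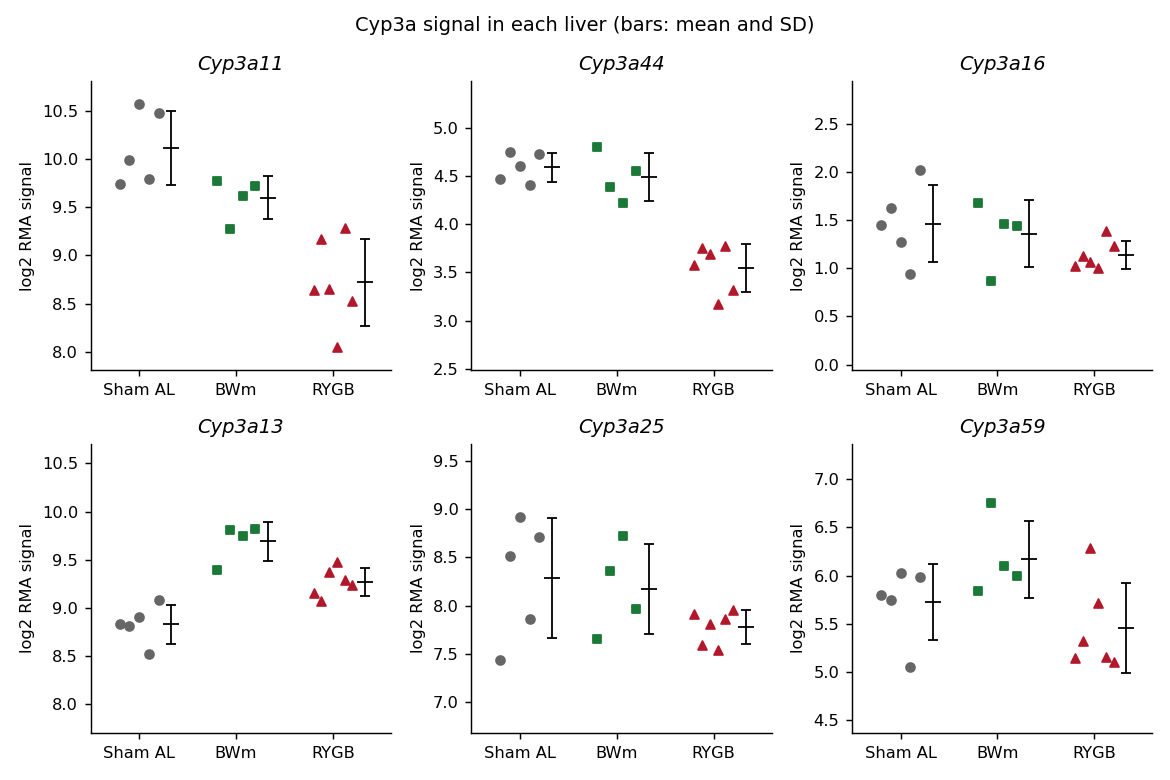
Log2 RMA signal of the 6 measured Cyp3a genes (y axes, each spanning 3 log2 units) in each liver of the Sham AL, BWm and RYGB groups (x axis); points are livers and bars the mean and SD. The RYGB livers lie below all sham livers for Cyp3a44 and below all but BWm replicate 2 for Cyp3a11, and the mean of Cyp3a13 is highest in BWm.

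Cyp3a44, a neighbour of Cyp3a11 that is better known from female liver, had signals of 4.47, 4.75, 4.60, 4.41 and 4.72 in Sham AL. In BWm they were 4.80, 4.39, 4.22 and 4.55. In RYGB the lowest was 3.17, the median 3.63 and the highest 3.78, below every liver of both sham groups. Cyp3a44 was 2.06-fold lower in RYGB than in Sham AL (log2 fold change -1.04 ± 0.13 SE, 95% interval -1.32 to -0.77, adjusted p = 0.000524), and the value without Sham AL replicate 4 was -1.09 (adjusted p = 0.0006). Its signal was near the array medians: above the highest of them (4.02) in every sham liver and below the lowest (3.89) in every RYGB liver. How far it stood above background was not measured.

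The 2 shared clusters, the only place where Cyp3a41a was measured, followed the same order. The first had signals of 9.92, 10.19, 10.42, 9.96 and 10.52 in Sham AL and of 10.15, 9.67, 9.80 and 9.88 in BWm. In RYGB it ran from 8.77 over a median of 9.03 to 9.55. The second ran from 8.44 over 8.67 to 9.18 in RYGB, against 9.51, 9.83, 10.07, 9.59 and 10.07 in Sham AL and 9.79, 9.31, 9.44 and 9.56 in BWm. The RYGB livers did not overlap with either sham group in either cluster, as was the case in this direction for 0.68% of all clusters against Sham AL and 2.22% against BWm. In limma over all 41345 clusters, of which 0.143% were called lower in RYGB than in Sham AL, the differences were -1.16 ± 0.15 and -1.13 ± 0.15 (log2 ± SE, adjusted p = 0.00313 for each). How much of this signal came from Cyp3a41a, Cyp3a41b, Cyp3a44 or Cyp3a11 was not tested.

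Cyp3a16, the perinatal form, was dim in every group. Its signals ranged from 1.00 over a median of 1.10 to 1.39 in RYGB and were 1.45, 1.63, 1.28, 0.94 and 2.02 in Sham AL and from 0.86 to 1.67 in BWm, all below the medians of the arrays. The groups overlapped, and the log2 difference between RYGB and Sham AL was -0.32 ± 0.17 (SE, adjusted p = 0.444). At this signal a difference in Cyp3a16 could not be measured well.

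Cyp3a13, the member encoded away from the cluster, lay on the other side. Its signals were 8.83, 8.82, 8.90, 8.52 and 9.08 in Sham AL and ran from 9.07 over a median of 9.26 to 9.48 in RYGB. Of the 6 RYGB livers, 5 were above every Sham AL liver. The log2 difference was 0.44 ± 0.11 (SE, 95% interval 0.20 to 0.68), which did not pass the test (adjusted p = 0.0703). It did pass when only genes above the median level were tested (adjusted p = 0.0343) and with a variance prior that follows the signal (adjusted p = 0.0446), and it was 0.36 (adjusted p = 0.155) without Sham AL replicate 4.

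Cyp3a25 and Cyp3a59, whose start regions are nearly identical, did not pass the test. Cyp3a25 signals were 7.43, 8.52, 8.92, 7.86 and 8.72 in Sham AL and ran from 7.54 over a median of 7.84 to 7.96 in RYGB. The RYGB livers sat in the lower part of the wide Sham AL range, with a log2 difference of -0.51 ± 0.23 (SE, 95% interval -1.0 to -0.02, adjusted p = 0.353). Cyp3a59 signals were 5.80, 5.74, 6.03, 5.06 and 5.99 in Sham AL and ran from 5.11 over 5.24 to 6.29 in RYGB. These groups overlapped, with a log2 difference of -0.27 ± 0.22 (SE, adjusted p = 0.671).

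The second comparison set the bypass mice against sham mice of matched weight. Cyp3a11, Cyp3a44 and Cyp3a13 were lower after bypass: 3 of 6 measured genes passed the test in the lower direction and 0 in the higher, against 2.34% of all genes called lower (519) and 4.02% called higher (892). The median log2 fold change of the 6 genes was -0.57, beside 0.00 over all genes. Both comparisons with RYGB share the RYGB livers, so their calls are not independent.

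Cyp3a44 had no overlap between RYGB and BWm, which was the case in this direction for 2.91% of all genes. It was 1.92-fold lower (log2 fold change -0.94 ± 0.14 SE, 95% interval -1.24 to -0.65, adjusted p = 0.000434). Cyp3a11 was 1.84-fold lower (log2 fold change -0.88 ± 0.22 SE, 95% interval -1.33 to -0.42, adjusted p = 0.0195), with 5 of 6 RYGB livers below every BWm liver. The exception was RYGB replicate 5 at 9.29, beside BWm replicate 2 at 9.28. The Cyp3a11 call was lost without BWm replicate 1 (adjusted p = 0.0627), replicate 3 (0.0555) or replicate 4 (0.0568), at log2 differences of -0.82, -0.87 and -0.83. The shared clusters were lower by -0.83 ± 0.16 and -0.84 ± 0.16 (log2 ± SE, adjusted p = 0.00948 and 0.00726 over all clusters, of which 1.12% were called lower).

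Cyp3a13 signals in BWm were 9.39, 9.80, 9.74 and 9.82, and 5 of 6 RYGB livers were below all of them. Cyp3a13 was 1.34-fold lower in RYGB than in BWm (log2 fold change -0.42 ± 0.12 SE, 95% interval -0.68 to -0.17, adjusted p = 0.0461). This call lay at the threshold. It was lost without RYGB replicate 1, 2, 3, 5 or 6, without Sham AL replicate 1, 2 or 3, which enter only through the shared error estimate, and without BWm replicate 2, 3 or 4, with adjusted p from 0.0536 without RYGB replicate 3 to 0.135 without BWm replicate 2 and log2 differences from -0.44 to -0.38.

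Cyp3a59 signals in BWm were 5.84, 6.75, 6.10 and 6.00, above 5 of 6 RYGB livers. The log2 difference between RYGB and BWm was -0.72 ± 0.24 (SE, adjusted p = 0.0891). RYGB replicate 3, at 6.29, was the RYGB liver inside the BWm range, and without it the difference was -0.88 (adjusted p = 0.017). Without Sham AL replicate 4 it was -0.72 and passed the test (adjusted p = 0.048). Cyp3a25, at 7.65, 8.36, 8.73 and 7.97 in BWm, differed by -0.40 ± 0.25 (log2 ± SE, adjusted p = 0.437), and Cyp3a16 by -0.22 ± 0.18 (adjusted p = 0.591).

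The third comparison, between the sham groups, shows the genes in weight-matched against freely fed mice, without a bypass. Body weight and food intake cannot be told apart in it. Cyp3a13 alone passed the test: 1 of 6 was higher in BWm and 0 lower, against 1.53% of all genes called higher (340) and 1.3% called lower (289). Cyp3a13 was 1.82-fold higher in BWm than in Sham AL (log2 fold change 0.86 ± 0.13 SE, 95% interval 0.59 to 1.13, adjusted p = 0.0017), and all 4 BWm livers were above all Sham AL livers, as were those of 3.46% of all genes. Without Sham AL replicate 4 it was 0.78 (adjusted p = 0.00289). Its group means were 8.83 ± 0.20 (SD, n = 5) in Sham AL, 9.27 ± 0.15 (SD, n = 6) in RYGB and 9.69 ± 0.20 (SD, n = 4) in BWm.

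Cyp3a11 in BWm was between the other groups, with 3 of 4 livers below every Sham AL liver. The log2 difference between BWm and Sham AL was -0.52 ± 0.23 (SE, 95% interval -0.99 to -0.04) and did not pass the test (adjusted p = 0.273). For Cyp3a44 it was -0.10 ± 0.15 (SE, 95% interval -0.41 to 0.20, adjusted p = 0.812). The interval for Cyp3a44 does not reach the size of its difference after bypass. The shared clusters differed by -0.33 ± 0.17 (adjusted p = 0.497) and -0.29 ± 0.16 (adjusted p = 0.55). Cyp3a59 differed by 0.44 ± 0.25 (adjusted p = 0.43), Cyp3a25 by -0.11 ± 0.26 (adjusted p = 0.889) and Cyp3a16 by -0.10 ± 0.19 (adjusted p = 0.855).

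**Figure D2:**
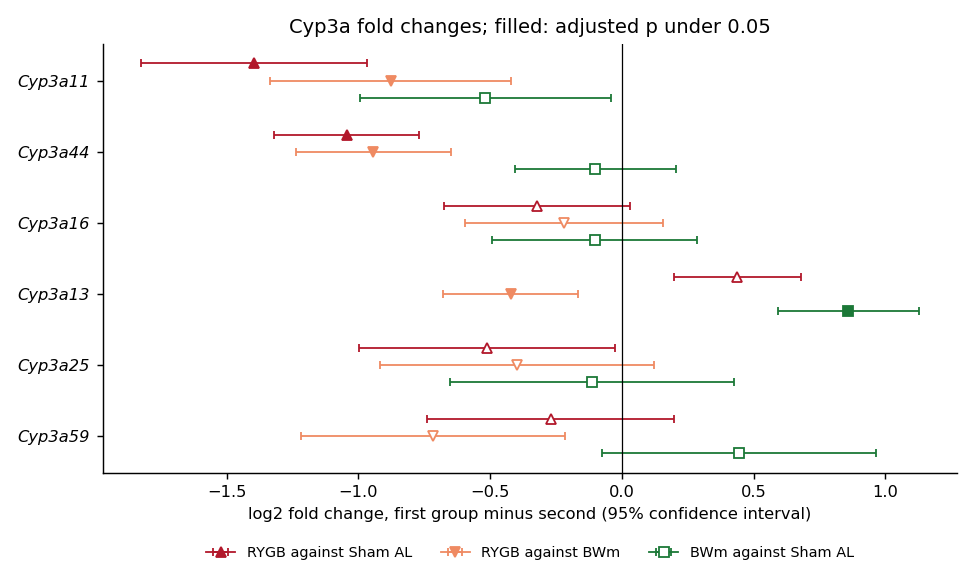
Log2 fold change (x axis, first group minus second) with its 95% confidence interval for the 6 measured Cyp3a genes (y axis) in the 3 comparisons; filled symbols passed the test at an adjusted p below 0.05. Cyp3a11 and Cyp3a44 lie left of 0 in both comparisons with RYGB, and Cyp3a13 lies right of 0 in BWm against Sham AL.

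The animal numbers in the sample descriptions fell into a set under 50 and a set above 60, whose meaning the labels do not give. The lower set held 3 RYGB livers, 1 Sham AL liver and 0 BWm livers. Within the higher set, Cyp3a11 was lower in RYGB than in Sham AL by -1.59 (log2, adjusted p = 0.00909) and than in BWm by -0.98 (adjusted p = 0.0493). Cyp3a44 differed by -1.20 (adjusted p = 0.00432) and -1.07 (adjusted p = 0.00302). Cyp3a13 was 0.86 higher in BWm than in Sham AL (adjusted p = 0.00842), whereas RYGB against BWm gave -0.36 (adjusted p = 0.261). The lower set was too small for a comparison of its own.

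The members were then compared with each other from liver to liver. Of 15 pairs, the pair of Cyp3a11 and Cyp3a44 was the only one with an adjusted permutation p below 0.05, but the RYGB livers form a cluster of their own in it. Within the 6 RYGB livers Pearson's r was 0.90 (exact permutation p = 0.00972, adjusted p = 0.146 over 15 pairs) and Spearman's rho 1.0 (exact permutation p = 0.00278, adjusted p = 0.0417). Without the 2 livers farthest from the Cyp3a11 median r was 0.73. After subtraction of each group's mean r was 0.72 over 15 livers. The signal of Cyp3a11 minus that of Cyp3a44 within a liver averaged 5.17 ± 0.25 in RYGB (SD, n = 6), 5.52 ± 0.32 in Sham AL (SD, n = 5) and 5.11 ± 0.22 in BWm (SD, n = 4). The part that probes shared between these transcripts have in this relation was not tested.

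Cyp3a13 and Cyp3a11 showed no relation that passed a test. Over 15 livers Pearson's r was -0.33 (permutation p = 0.227, adjusted p = 0.341) and Spearman's rho -0.45 (permutation p = 0.0909, adjusted p = 0.241), and after subtraction of group means r was -0.07. Cyp3a13 minus Cyp3a11 within a liver averaged -1.28 ± 0.28 in Sham AL (range -1.67 to -0.91), 0.09 ± 0.37 in BWm (range -0.38 to 0.53) and 0.55 ± 0.56 in RYGB (range -0.10 to 1.43). All Sham AL livers were below all livers of the other groups in this difference. It restates the Cyp3a11 and Cyp3a13 values above, and the share of gene pairs with such a separation was not computed. The Cyp3a25 and Cyp3a59 pair, with the most alike start regions, had r = 0.41 (adjusted permutation p = 0.251) and r = 0.30 after subtraction of group means.

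**Figure D3:**
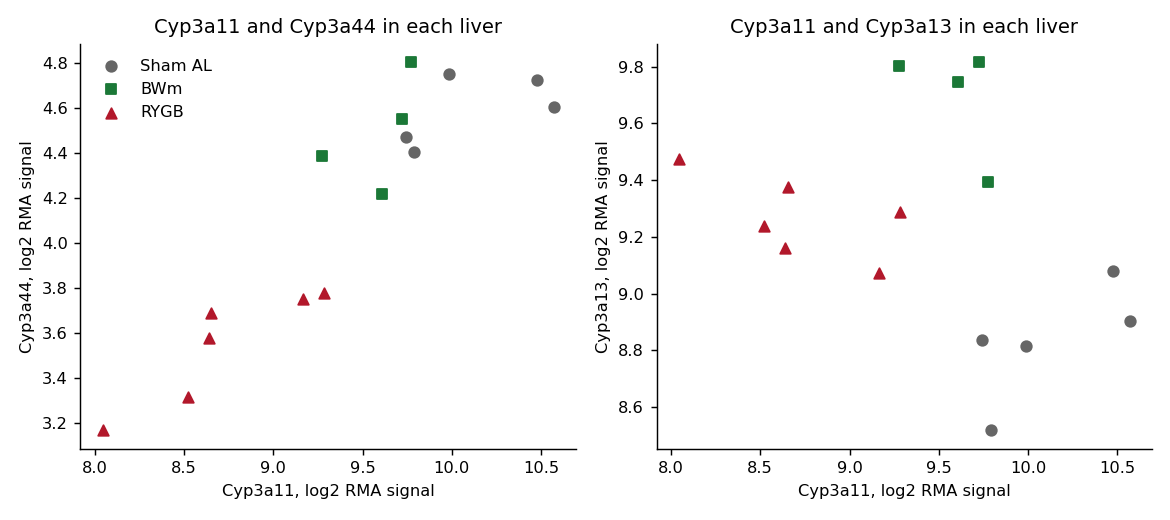
Cyp3a44 (left, y axis) and Cyp3a13 (right, y axis) against Cyp3a11 (x axes), all as log2 RMA signal, 1 point per liver with the group shown by colour and symbol. Livers low in Cyp3a11 are low in Cyp3a44, whereas Cyp3a13 is higher in every BWm liver than in every Sham AL liver.

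Across 17843 named genes, the genes whose signal over the 15 livers was most like that of Cyp3a11 were Cyp3a44 (r = 0.91), the cholesterol exporter Abca1 (r = 0.90), Zfp534 (r = 0.88), the liver glycogen phosphorylase Pygl (r = 0.88) and Tcim (r = 0.86). With group means subtracted these were 0.72, 0.86, 0.74, 0.65 and 0.34. The most opposite were the glutaminyl-tRNA synthetase Qars (r = -0.93), the SREBP-processing protease Mbtps2 (r = -0.93) and the coenzyme Q factor Coq8b (r = -0.90), with -0.78, -0.72 and -0.58 after subtraction. These values are descriptions, since the livers share group differences and the genes were ranked by r. In the same order Cyp3a16 came at place 277, Cyp3a25 at 382, Cyp3a59 at 3765 and Cyp3a13 at 14565.

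The regulators listed for Cyp3a were measured on the same arrays. Of 17 measured of 18 receptors, hepatocyte factors and cofactors, limma called 0 in RYGB against Sham AL, where 3 had an unadjusted p below 0.05 and the methods' analysis of variance called 0. PXR (Nr1i2) differed by 0.15 ± 0.16 (log2 ± SE, adjusted p = 0.75), CAR (Nr1i3) by -0.14 ± 0.19 (adjusted p = 0.816) and their partner Rxra by 0.04 ± 0.11 (adjusted p = 0.937). Against BWm 4 of 17 were lower in RYGB and 0 higher, with a list median of -0.36. These were Foxo1 (-0.81 ± 0.12, adjusted p = 0.000438), the fasting-active factors Ppara (-0.57 ± 0.12, adjusted p = 0.00834) and Ppargc1a (-0.75 ± 0.20, adjusted p = 0.0319), and the forkhead factor Foxa2 (-0.74 ± 0.22, adjusted p = 0.0485). PXR differed by -0.40 ± 0.17 (adjusted p = 0.192) and CAR by -0.39 ± 0.20 (adjusted p = 0.315) there. In BWm against Sham AL 2 of 17 were higher, Foxo1 (0.62 ± 0.12, adjusted p = 0.0108) and Ppargc1a (1.01 ± 0.21, adjusted p = 0.013), while PXR differed by 0.56 ± 0.17 (adjusted p = 0.101).

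Other targets of PXR and CAR moved in both directions. Of 25 measured of 32, 3 were lower and 1 higher in RYGB than in Sham AL, with a list median of -0.21. The lower genes were the P450s Cyp2c37 (-0.96 ± 0.20, adjusted p = 0.0168) and Cyp2c29 (-1.35 ± 0.28, adjusted p = 0.0184) and the carboxylesterase Ces2a (-0.97 ± 0.22, adjusted p = 0.0339). The higher gene was the basolateral exporter Abcc4 (1.48 ± 0.28, adjusted p = 0.0115). Against BWm 6 were lower, among them Cyp2c37 (-1.34 ± 0.21, adjusted p = 0.000639) and the CAR target Cyp2b10 (-0.70 ± 0.20, adjusted p = 0.0372), and 5 higher, led by the glucuronosyltransferase Ugt2b35 (1.35 ± 0.15, adjusted p = 5.28e-05). Cyp2b10 was dim: its highest signal in any liver was 3.80, below the lowest array median (3.89), so its difference could not be measured well. In BWm against Sham AL 2 of these targets were higher and 3 lower. Among 36 measured of 38 other drug-metabolising P450s, 3 were lower and 1 higher in RYGB than in Sham AL, 3 lower and 0 higher than in BWm, and 1 higher and 1 lower in BWm than in Sham AL. Some P450s stand in both lists.

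The electron donors and heme enzymes that P450s need were counted in the same way. Of 14 measured of 16, 1 was lower in RYGB than in Sham AL, where 0.442% of all genes were called lower, and 4 had an unadjusted p below 0.05. The lower gene was the heme-binding P450 partner Pgrmc2 (-0.53 ± 0.12, adjusted p = 0.0317), while the first enzyme of heme synthesis, Alas1, differed by -0.32 ± 0.14 (adjusted p = 0.344). By limma 0 were called in the other comparisons, with 4 at an unadjusted p below 0.05 in each and 0 by the methods' analysis of variance at its own threshold. After Benjamini-Hochberg that analysis called 1 in RYGB against BWm, the electron carrier Cyb5a (-0.19 ± 0.09, adjusted p = 0.247 in limma), and 0 in BWm against Sham AL.

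Of 32 measured of 33 bile acid genes, 2 were higher and 1 lower in RYGB than in Sham AL, 2 higher and 5 lower than in BWm, and 4 higher and 1 lower in BWm than in Sham AL. The oxysterol hydroxylase Cyp39a1 was higher than in Sham AL both after bypass (1.95 ± 0.29, adjusted p = 0.00169) and in BWm (2.31 ± 0.32, adjusted p = 0.00119). Among pericentral hepatocyte genes, the zone in which Cyp3a11 is mostly expressed, 1 of 24 measured was lower in RYGB than in Sham AL (Cyp2c29) and 0 higher, and the list median was -0.11. Of 19 measured periportal genes 0 were called there by limma, with 3 at an unadjusted p below 0.05 and 0 by the methods' analysis of variance.

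Sex-biased and acute phase genes were counted because Cyp3a44 and Cyp3a41a are female-predominant and inflammation lowers many P450s. Of 25 measured male-predominant genes, 3 were lower and 0 higher in RYGB than in Sham AL, among them the fatty acid hydroxylase Cyp4a12a (-2.03 ± 0.48, adjusted p = 0.0451) and Cyp2d9 (-0.95 ± 0.23, adjusted p = 0.0476). The third, Elovl3 (-2.79 ± 0.67, adjusted p = 0.0458), is also a brown fat gene, but its signal of 9.76 in Sham AL replicate 4 lay inside the 9.25 to 9.80 of the other Sham AL livers, and it was also lower in RYGB than in BWm (-3.12 ± 0.71, adjusted p = 0.0116). The list median was -0.66. Of 37 measured female-predominant genes other than Cyp3a, 4 were higher and 1 lower, among them Nipal1 (1.86 ± 0.22, adjusted p = 0.000491), the flavin monooxygenase Fmo4 (1.02 ± 0.14, adjusted p = 0.000808) and the receptor Ntrk2 (-1.27 ± 0.19, adjusted p = 0.00177). The list median was 0.41, where Cyp3a44 was at -1.04. The P450 Cyp2b13, also female-predominant, was 2.82 to 4.91 in RYGB and 4.96 to 6.87 in Sham AL. These groups did not overlap, as in this direction for 0.812% of all genes, and its lowest signals were under the array medians. The signals of Cyp2b9 overlapped, at 7.05 to 10.44 in RYGB and 8.81 to 10.16 in Sham AL. No test is given for either. In RYGB against BWm 0 of 37 were higher and 5 lower, led by Fmo2 (-1.56 ± 0.26, adjusted p = 0.000923), and the list median was -0.15, where Cyp3a44 was at -0.94. In BWm against Sham AL 7 of 37 were higher and 0 lower, with a list median of 0.36. Of the male-predominant genes 1 was higher and 2 lower in RYGB than in BWm. Of 29 measured acute phase genes 6 were higher and 1 lower in RYGB than in Sham AL, with a list median of 0.36. Among them were the endotoxin receptor Cd14 (2.17 ± 0.34, adjusted p = 0.00238) and the pentraxin Apcs (1.71 ± 0.28, adjusted p = 0.00355). The smallest p were those of Mt1 (1.31 ± 0.19) and Mt2 (1.60 ± 0.24), which were also higher in BWm than in Sham AL (1.35 ± 0.21 and 1.53 ± 0.27). In RYGB against BWm 5 acute phase genes were higher and 1 lower, with a list median of 0.12. In BWm against Sham AL 3 were higher and 1 lower, with a list median of 0.12.

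The list means and Cyp3a11 were set side by side in each liver. The male-predominant list mean, relative to all arrays, was 0.65 and 0.36 in RYGB replicates 1 and 2, within or above the Sham AL range of 0.25 to 0.54. It was between -0.97 and -0.55 in the other 4 RYGB livers. In BWm it was -0.72 in replicate 2 and between 0.16 and 0.34 in the others. Replicate 2 had the lowest Cyp3a11 in BWm (9.28). By contrast, RYGB replicate 5, with the highest Cyp3a11 in RYGB (9.29), had a male-predominant list mean of -0.55. The acute phase list mean was -0.17 and -0.02 in RYGB replicates 1 and 2 and between 0.37 and 0.48 in the other RYGB livers. It was -0.37 to -0.11 in Sham AL and -0.21 to 0.10 in BWm. Cyp3a11 was 8.64 and 9.17 in RYGB replicates 1 and 2, and every RYGB liver was below every Sham AL liver. RYGB replicates 1 and 2 are from the set of animal numbers under 50, as are RYGB replicate 3, whose list means lay with the other RYGB livers, and Sham AL replicate 1. The part of inflammation or of sex-biased expression in the Cyp3a values was not tested.

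**Figure D4:**
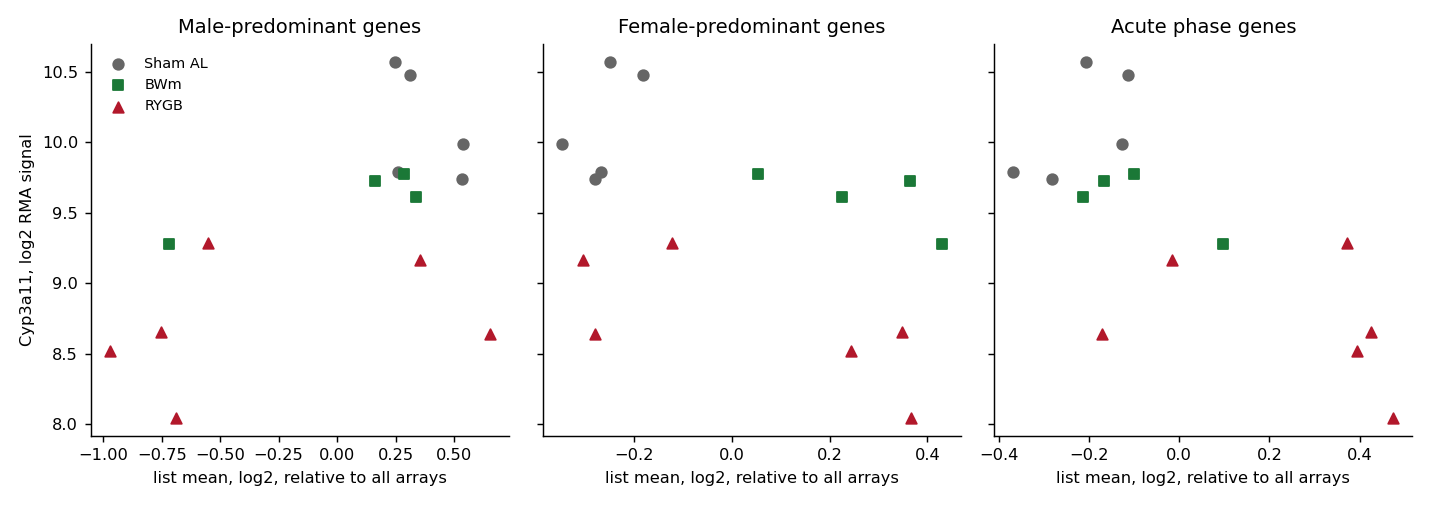
Cyp3a11 (y axis, log2 RMA signal) against the mean of male-predominant, female-predominant and acute phase genes (x axes, log2, relative to all arrays), 1 point per liver with the group shown by colour and symbol. Every RYGB liver has lower Cyp3a11 than every Sham AL liver. Because that separation is complete, no choice of livers by list mean could change it, and the part of the lists was not tested.

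Markers of other cell types were read beside these values. Of 10 measured enterocyte markers, 7 were below the lowest array median in every group, and 1, Fabp2, was lower in RYGB than in Sham AL (-1.37 ± 0.27, adjusted p = 0.0146). Of 10 measured Kupffer cell markers 1 was higher in RYGB than in Sham AL (Adgre1, 0.64 ± 0.14, adjusted p = 0.0252) and 0 lower, with a list median of 0.37. Their part in the Cyp3a differences was not tested.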

How the data were processed

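The samples were 15 mouse livers on 1 array each. Per the series' design text, the authors computed the deposited log2 values with RMA in Affymetrix Expression Console 1.4.1.46. RMA subtracts background, makes arrays alike in distribution and summarises probes. Differences between dim or between bright signals can be compressed in such values. The genome build of the annotation is not given in the sources used here. Of 41345 clusters, 23521 had a single symbol, 1814 several and 16010 none; for each gene the single-symbol cluster with the highest mean was used (22180 genes; 1082 had more than 1). Groups were fitted in limma 3.58.1 (R 4.3.3; lmFit, eBayes, 12 residual and 5.85 prior degrees of freedom, 3 contrasts, two-sided), checked on simulated data. Correlations used SciPy 1.17.1 (two-sided, 100000 permutations, or exact in the RYGB livers), alignments Biopython 1.88. The methods' test was an analysis of variance with thresholds of 0.05 (unadjusted) and a 1.5-fold change.

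The members and gene lists were chosen with earlier results of these data known. Named were all members, the up to 4 genes with the smallest p per list and comparison, any regulator or P450 partner, the 5 genes most like Cyp3a11 and the 3 least like it (leaving out Mup genes, chemosensory receptors and predicted genes). Cyp2b9 and Cyp2b13 were named in addition. The ranking of most similar genes could not be made for Cyp3a41a. Alternatives covered normalization, filter, cluster choice, variance prior, weights, blocks and left-out arrays.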

Additional observations from a re-analysis of the deposited data

Results flagged for a closer look

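In 24 sets of a gene or shared cluster in a group, 2 had a liver far from the others, and chance alone gives about 1 in 20. Cyp3a13 was 9.39 in BWm replicate 1, against 9.74 to 9.82 in the other BWm livers. The second shared cluster of Cyp3a11, Cyp3a41a, Cyp3a41b and Cyp3a44 was 9.18 in RYGB replicate 5, against 8.44 to 8.68 in the other RYGB livers.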

How the results depend on the processing

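The calls of Cyp3a44 in both comparisons with RYGB held under every alternative that kept the gene (adjusted p up to 0.0262 against Sham AL and 0.0234 against BWm); the level filter removed it and Cyp3a16. Cyp3a11 against Sham AL was lost only in the methods' analysis of variance after Benjamini-Hochberg (adjusted p = 0.0777), as was Cyp3a13 in BWm against Sham AL (0.0559). That test called 1, 1 and 0 Cyp3a genes in RYGB against Sham AL, RYGB against BWm and BWm against Sham AL. Beside left-out arrays, Cyp3a13 in RYGB against BWm was lost after quantile normalization (0.0694), over all clusters (0.0859), with a block for animal number (0.122), in animals numbered above 60 (0.261, chosen after seeing the data), with the replicate block (0.0991) and in that analysis of variance (0.0789), where Cyp3a11 had 0.104. Replicate numbers did not pair samples (4 of 13 same-number pairs had deviations correlated above 0.1). The replicate block called 174, 903 and 325 genes in the 3 comparisons, against 306, 1411 and 629 without it, and lost no other Cyp3a call. Leaving out each array gave 144 to 398, 930 to 1544 and 284 to 646 genes, and 2 to 2, 1 to 4 and 1 to 1 Cyp3a genes; RYGB against BWm had 1 without BWm replicate 3 or 4 and 4 without Sham AL replicate 4. The analysis of variance after Benjamini-Hochberg called 54, 833 and 90 genes, and 857 at its own threshold in RYGB against BWm. All clusters gave 169 genes in RYGB against Sham AL, and the level filter 1011 in BWm against Sham AL. Differences near 0 in BWm against Sham AL changed sign, for Cyp3a25 without Sham AL replicate 3 (0.0455) or BWm replicate 1 (range over left-out arrays -0.33 to 0.061) and for Cyp3a16 without Sham AL replicate 5 (0.0356) or BWm replicate 2 (range -0.23 to 0.0615). The causes were not tested. Signal over background was not measured, which limits Cyp3a16 most.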
